A study of Mus musculus with 28 samples.

Results

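The 10 crystallins described here are Cryaa, Cryab, Cryba1, Cryba2, Cryba4, Crybb1, Crybb2, Crybb3, Crygs and Crygd, chosen by name from the 23995 genes in the files. Their levels were followed in ribosome-bound mRNA of the mouse eye and of its main midbrain target, the superior colliculus (SC), at 4 stages. All mice were C57BL/6 and carried RiboTag, an Rpl22 allele that gains a haemagglutinin (HA) tag wherever Cre recombinase has acted. Cre came from Pax6-alpha-Cre, which is active for a short time in progenitors of the peripheral neural retina, so only part of the retina holds tagged ribosomes. Tagged ribosomes were pulled down with their mRNA (translating ribosome affinity purification, TRAP) at E17.5, P0.5, P7.5 and in the adult. Each stage had 2 replicates of retina from Cre-positive mice, 2 of Cre-positive SC, where tagged ribosomes sit in retinal ganglion cell (RGC) axons, and 2 of Cre-negative SC, which holds the RiboTag allele without Cre and measures background binding. That gave 8 retina and 16 SC libraries in FPKM, a count of fragments scaled to transcript length and to library size, and 4 adult run-off libraries in read counts, 28 in all. The methods describe the cell-body samples as pooled whole eyes in one place and as dissected retina in another, and the labels read retina, so whether lens was removed is not settled. No Cre-negative eye was sequenced, and for this reason mRNA on tagged ribosomes and mRNA that bound without a tag cannot be told apart in the retina libraries.

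Crystallins are the bulk soluble proteins of the lens, packed at high concentration in fibre cells to give transparency and refractive power. The α-crystallins belong to the small heat shock proteins and act as chaperones, whereas the β- and γ-crystallins share a double Greek key fold and are mainly structural. Lens fibre cells add different crystallins as the lens matures, and several members, above all Cryab, are also made outside the lens, including in glia and in retina.

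Sequence upstream of the genes is shown for 4 members. Cryaa, Crybb1 and Cryba1 hold both kinds of word marked below, and Crygd holds a TATA word only. The sequences are RefSeq promoters of GRCm38.p6 (the mm10 assembly), from 250 bases before to 50 after the start of the gene, on the gene's own strand. Capitals mark TGCTGA, the core of the element that large Maf transcription factors recognise in crystallin genes, and the TATA words TATAAA and TATATA. The windows lie at chr17:31677681-31677980 on the plus strand for Cryaa, chr5:112255570-112255869 on the plus strand for Crybb1, chr11:77725244-77725543 on the minus strand for Cryba1 and chr1:65063391-65063690 on the minus strand for Crygd.
Cryaa: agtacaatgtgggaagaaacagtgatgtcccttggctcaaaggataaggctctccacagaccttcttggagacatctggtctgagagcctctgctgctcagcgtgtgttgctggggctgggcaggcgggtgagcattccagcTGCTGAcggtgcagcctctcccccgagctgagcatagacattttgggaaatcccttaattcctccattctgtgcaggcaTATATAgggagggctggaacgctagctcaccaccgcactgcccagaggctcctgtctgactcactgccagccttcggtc
Crybb1: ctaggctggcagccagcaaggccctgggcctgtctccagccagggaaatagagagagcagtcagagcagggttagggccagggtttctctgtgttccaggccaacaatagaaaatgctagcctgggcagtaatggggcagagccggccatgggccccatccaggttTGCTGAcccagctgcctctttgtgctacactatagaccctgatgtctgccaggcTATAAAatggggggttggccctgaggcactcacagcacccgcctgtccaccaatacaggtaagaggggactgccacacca
Cryba1: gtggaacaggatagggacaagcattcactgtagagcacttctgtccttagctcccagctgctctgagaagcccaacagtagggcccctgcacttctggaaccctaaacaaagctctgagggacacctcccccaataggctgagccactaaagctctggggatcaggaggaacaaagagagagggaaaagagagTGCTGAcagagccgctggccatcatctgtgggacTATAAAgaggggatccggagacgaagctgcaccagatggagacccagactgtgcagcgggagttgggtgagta
Crygd: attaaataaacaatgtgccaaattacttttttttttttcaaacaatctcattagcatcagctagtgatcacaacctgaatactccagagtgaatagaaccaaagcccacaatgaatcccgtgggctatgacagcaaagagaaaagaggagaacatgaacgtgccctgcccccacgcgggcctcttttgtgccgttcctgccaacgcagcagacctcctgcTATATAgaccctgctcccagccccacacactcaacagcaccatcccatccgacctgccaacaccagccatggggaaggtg
In Cryaa TGCTGA began at -108 and the TATA word at -29 from the start, in Crybb1 at -84 and -30, and in Cryba1 at -57 and -23. Crygd held TATATA at -30 and no TGCTGA in this window. Crybb2, not shown, held neither kind of word. Of the 10 members 9 matched the promoter table, Cryab having no entry. TGCTGA was found on either strand in 7 of these 9, against 19.5% of all 32851 promoters of the same length. A TATA word, either TATAAA or TATATA and searched on both strands, was found in 6 of the 9, against 17.1% of all promoters. A word match is a description and does not say that a factor binds there.

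The genes lie on 6 chromosomes, with 4 of the β-crystallins on chromosome 5, where Cryba4 (112246493-112252518) and Crybb1 (112255815-112269585) are neighbours, as are Crybb2 (113058258-113070117) and Crybb3 (113075839-113081584). These positions are from GENCODE for GRCm38. Crygd (chromosome 1, 65061872-65063452) is the member with sequence shared with another gene. Of its 50-base words 19.7% occur elsewhere in the transcripts, most often in Cryge, so its level is uncertain by what was assigned between γ-crystallins. The other 9 members shared no 50-base word. Cryab overlaps Hspb2 on the opposite strand, and whether strand was used in counting is not given in the sources used here.

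Some libraries stood apart from their labels and bear on every result below. In P7.5 retina replicate 1, 0 of 8 photoreceptor markers were at 1 FPKM or more against 7 of 8 in replicate 2. The library correlated more closely with a P7.5 Cre-positive SC library (Pearson r = 0.86 over 23991 genes) than with its own replicate (0.70). With E17.5 retina replicate 1 it correlated at 0.82. Adult Cre-negative SC replicate 1 held 7 of 8 photoreceptor markers at 1 FPKM or more, with a summed level of 83.1 FPKM, whereas the other 15 SC libraries had 0 to 8.45 FPKM. It also held 266 FPKM of 7 oligodendrocyte markers, genes of the myelin-forming cells of brain. Adult retina replicate 1 had only 2082 genes above 0, against 4311 to 8769 in the other retina libraries. The files give no library totals, but the spacing of low values gave approximate depths, at which 3 fragments of a typical member correspond to 0.373 to 0.564 FPKM in the retina libraries. By the same estimate 3 fragments were 7.31 FPKM in adult Cre-negative SC replicate 1 and 7.69 FPKM in E17.5 Cre-negative SC replicate 1, the shallowest libraries. The main results are given with and without the first 2 of these libraries, a choice made after seeing the data. Their crystallin sums, 6.55 and 336 FPKM, were the lowest of any retina and the highest of any SC library. Leaving them out thus widens the retina minus SC differences by itself and is no separate support for them.

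**Figure D1:**
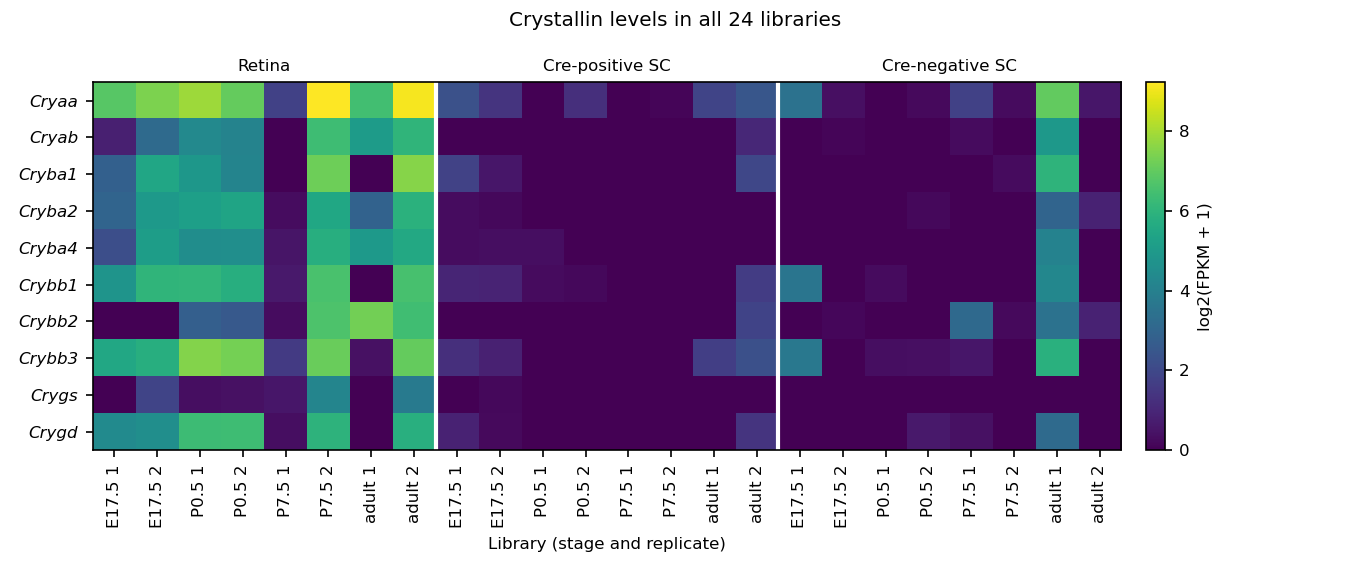
Level of the 10 crystallins (rows) in the 24 FPKM libraries (columns, grouped as retina, Cre-positive SC and Cre-negative SC), as log2(FPKM + 1) by colour. Of the retina libraries P7.5 replicate 1 is dark throughout, and of the SC libraries adult Cre-negative replicate 1 alone is bright in 9 of 10 rows.

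Summed over the 10 members, crystallin mRNA stood at 222 and 426 FPKM in the E17.5 retina libraries, 670 and 525 at P0.5, 6.55 and 1329 at P7.5, and 307 and 1276 in the adult. These sums were 0.0869% to 0.494% of all FPKM in 7 of the retina libraries and 0.00204% in P7.5 replicate 1. In 15 SC libraries the sum ran from 0 to 33.0 FPKM with a median of 1.53, and in adult Cre-negative SC replicate 1 it was 336 FPKM. The retina and SC ranges overlapped only through P7.5 retina replicate 1 and adult Cre-negative SC replicate 1. In bulk samples fewer cells of a type and less RNA per cell cannot be told apart.

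**Figure D2:**
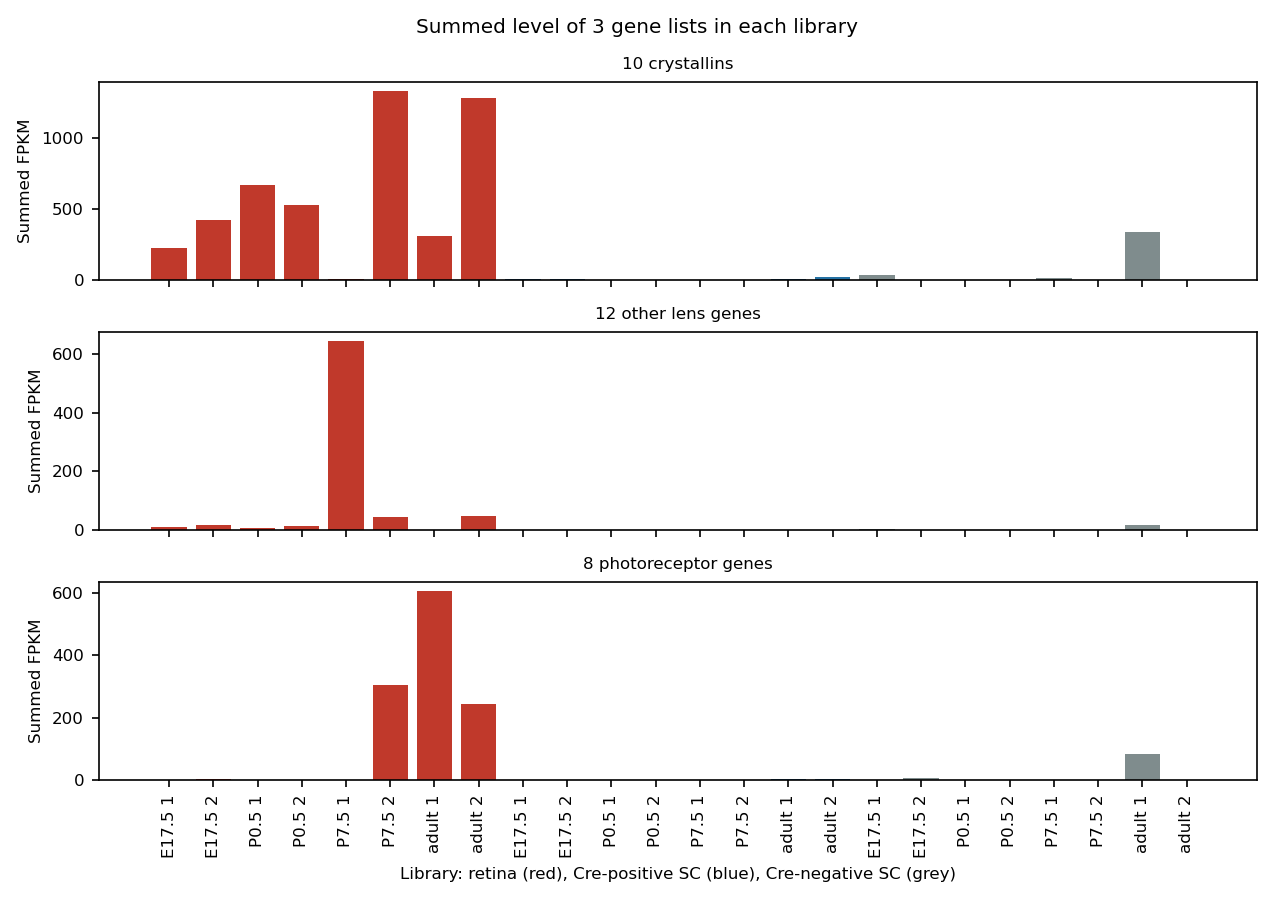
Summed FPKM (bars, linear axes from 0) of the 10 crystallins, of 12 other lens genes and of 8 photoreceptor genes in each library, with retina in red, Cre-positive SC in blue and Cre-negative SC in grey. The single tall bar of the lens panel, 643 FPKM in P7.5 retina replicate 1, is nearly all Mip, and the photoreceptor bar of that library is 1.66 FPKM.

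Cryaa encodes αA-crystallin, the lens chaperone of the small heat shock family, and was the most abundant member. It was at 112 and 167 FPKM in E17.5 retina, 232 and 131 at P0.5, 2.40 and 596 at P7.5, and 84.8 and 548 in the adult. In SC it did not exceed 10.1 FPKM outside adult Cre-negative replicate 1, where it was 129. All 8 retina libraries held it at 1 FPKM or more, and in P7.5 and adult replicate 2 it ranked 81 and 88 among all genes.

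Cryab encodes αB-crystallin, the family's stress-inducible chaperone. Its retina values were 0.748 and 8.14 FPKM at E17.5, 19.5 and 16.5 at P0.5, 0 and 80.0 at P7.5, and 32.6 and 65.2 in the adult. Apart from P7.5 replicate 1 every postnatal retina library was above both E17.5 libraries. In SC it was at 0 in 12 of 16 libraries, at 28.9 in adult Cre-negative replicate 1, and at no more than 1.04 in the rest.

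The acidic β-crystallins Cryba1, Cryba2 and Cryba4 are structural partners in β-crystallin oligomers. Cryba1 was at 6.18 and 43.1 FPKM in E17.5 retina, 28.2 and 16.9 at P0.5, 0 and 145 at P7.5, and 0 and 186 in the adult. Its replicates differed more within P7.5 and within the adult than any stage means did. Cryba2 was at 6.91 and 30.4, 36.0 and 40.5, 0.232 and 44.1, and 6.43 and 58.5 FPKM at the 4 stages in turn. Cryba4 was at 3.62 and 34.3, 22.1 and 22.3, 0.438 and 53.7, and 30.1 and 46.6 FPKM. For Cryba2 and Cryba4 every SC library but adult Cre-negative replicate 1 was below 1 FPKM, and the 7 retina libraries without P7.5 replicate 1 were all above 3.

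Of the basic β-crystallins, Crybb1 and Crybb3 were already high before birth. Crybb1 was at 26.6 and 63.9 FPKM in E17.5 retina, 65.5 and 54.7 at P0.5, 0.545 and 94.0 at P7.5, and 0 and 91.1 in the adult. Crybb3 was at 45.4 and 53.9 FPKM at E17.5, 181 and 156 at P0.5, 1.95 and 139 at P7.5, and 0.342 and 130 in the adult. Both were thus near or at 0 in P7.5 replicate 1 and in adult replicate 1, and above 26 FPKM in the other 6 retina libraries.

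Crybb2, a late product of lens fibre cells, followed another course. It was listed at 0 in both E17.5 retina libraries, at 5.88 and 5.0 FPKM at P0.5, 0.230 and 99.2 at P7.5, and 153 and 83.3 in the adult. Both adult values were above both P0.5 values, and both P0.5 values above both E17.5 values. In adult replicate 1, where Crybb3 was 0.342 FPKM, Crybb2 was the member with the highest level.

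The γ-crystallins of the list, structural proteins of the fibre cell, differed from each other. Crygd was at 20.5 and 22.7 FPKM in E17.5 retina, 79.6 and 81.3 at P0.5, 0.274 and 60.6 at P7.5, and 0 and 55.9 in the adult. Crygs was the least abundant member, at 0 and 2.73 FPKM at E17.5, 0.263 and 0.332 at P0.5, 0.474 and 17.3 at P7.5, and 0 and 12.7 in the adult. Crygs was at 0 in 15 of 16 SC libraries, adult Cre-negative replicate 1 included.

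**Figure D3:**
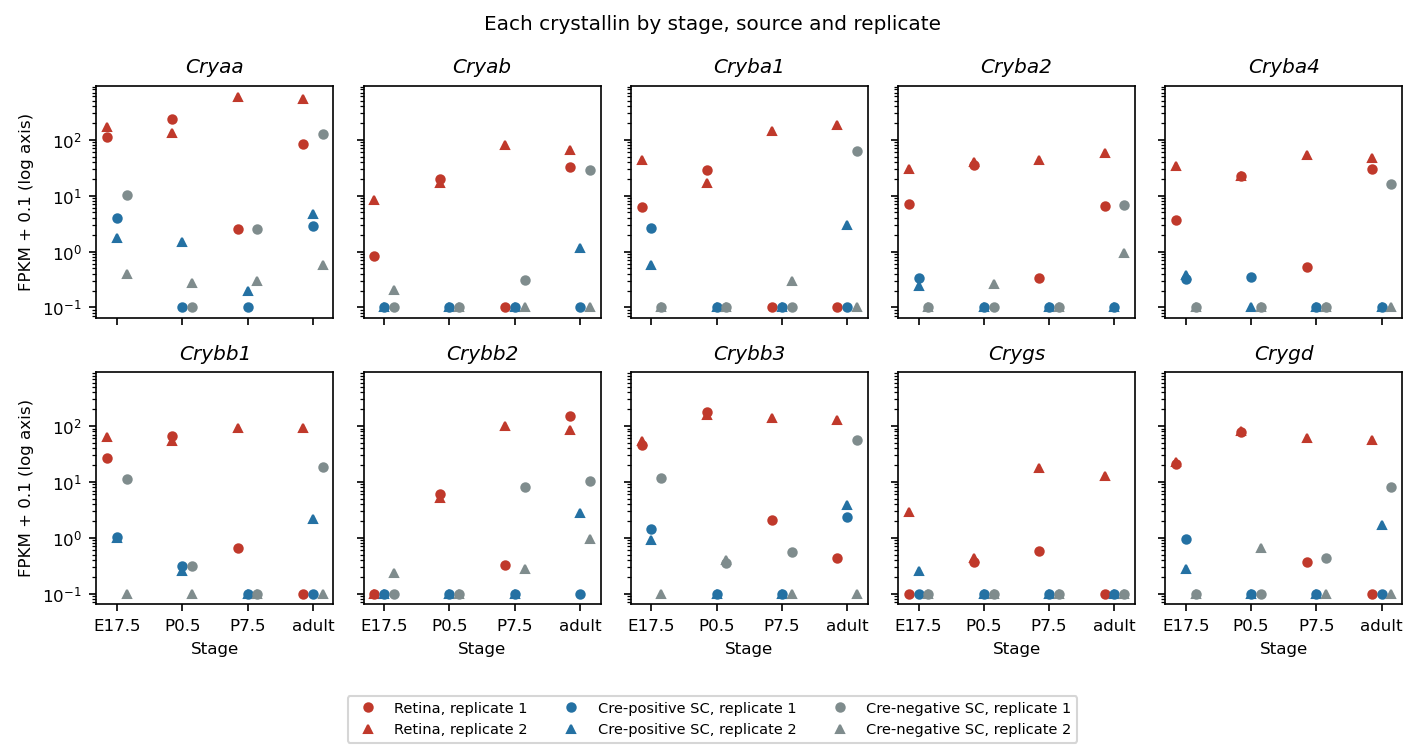
FPKM + 0.1 on a log axis for each crystallin by stage, with 1 point per library, circles for replicate 1 and triangles for replicate 2. Retina is red, Cre-positive SC blue and Cre-negative SC grey; Crybb2 alone is at 0 in both E17.5 retina libraries and between 83.3 and 153 FPKM in both adult ones.

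By mean level per length over the 8 retina libraries the order was Cryaa (234 ± 219 FPKM, SD, n = 8), Crybb3 (88.3 ± 71.3), Cryba1 (53.1 ± 71.6), Crybb1 (49.5 ± 37.0), Crybb2 (43.3 ± 60.0), Crygd (40.1 ± 33.4), Cryba2 (27.9 ± 21.0), Cryab (27.8 ± 29.8), Cryba4 (26.6 ± 18.7) and Crygs (4.22 ± 6.80). The 8 libraries span 4 stages, so this spread holds stage as well as replicate differences. Apart from Cryba4 and Crygs at its end, no neighbours in this order differed by more than the larger of their SDs, and the ranges of those 2 overlapped. Without P7.5 replicate 1 the order of the 10 means was the same, from 267 ± 214 FPKM for Cryaa (SD, n = 7) to 4.75 ± 7.17 for Crygs.

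Whether crystallin mRNA was higher in retina than in the axon samples was asked with limma on log2(FPKM + 1) over the 4 stages. All 10 members passed the filter of 1 FPKM in at least 2 libraries, but Cryba2, Cryba4 and Crygs did so through retina libraries only. These 3 had to be higher there to be tested at all. Once adult Cre-negative SC replicate 1 was left out the same held for Cryab and Crygd, each then at 1 FPKM or more in 1 SC library. In retina against Cre-positive SC, 8 of 10 members were higher at a Benjamini-Hochberg adjusted p under 0.05 and 0 were lower, where 3.66% of the 7193 genes tested were higher. Over the 7 members that pass the filter on SC libraries alone, 6 were called. The median difference of the 10 members was 3.98, against -0.21 over all genes. Cryaa had the largest difference, 5.78 ± 1.05 (SE; limma adjusted p = 0.0030, higher in 4 of 4 stages by means). The differences of the other members called were 4.53 for Crybb3, 4.08 for Cryba2, 4.05 for Crybb1, 4.04 for Cryba4, 3.92 for Crygd, 3.61 for Cryab and 3.01 for Crybb2. Cryba1 (3.46 ± 1.17, adjusted p = 0.064) and Crygs (1.37 ± 0.52, adjusted p = 0.099) did not pass. Without P0.5 Cre-positive SC replicate 1 the count fell to 3 of 10, while the share of all genes called in either direction went from 11.8% to 0.754%. Over all single libraries left out the count ran from 3 to 10. Without both libraries that stood apart, left out after seeing the data, the difference of each member was larger, from 1.83 for Crygs to 6.71 for Cryaa. This follows from leaving out the retina library with the lowest crystallin sum. Some groups then held 1 library, so effect sizes alone are given.

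Against Cre-negative SC, the same retina libraries gave 6 of 10 members higher and 0 lower by limma, where 2.5% of genes were higher. Over the 7 members that pass the filter on SC libraries alone, 4 were called. The members' median difference was 3.58, against 0.03 over all genes. Cryaa (5.24 ± 1.05, adjusted p = 0.010), Crybb3 (3.94), Crygd (3.70), Cryba4 (3.65), Cryba2 (3.63) and Cryab (3.08) passed. Crybb1 (3.53, adjusted p = 0.055), Crybb2 (2.26, adjusted p = 0.10), Cryba1 (3.23, adjusted p = 0.13) and Crygs (1.40, adjusted p = 0.14) did not. The count was 3 without P0.5 Cre-negative SC replicate 1 and also 3 without P0.5 retina replicate 1, and 10 without P7.5 retina replicate 1. The share of all genes called in either direction was 5.41% with every library, and 1.42%, 2.26% and 9.1% in these fits in turn, so it moved the same way as the members' count. With both libraries that stood apart left out, after seeing the data, each member's difference was larger, from 1.85 for Crygs to 6.98 for Cryaa. This follows from leaving out the lowest retina and the highest SC library in crystallin sum. Cryab, Cryba2, Cryba4, Crygd and Crygs passed the filter of that last fit through retina libraries only. The 2 comparisons share their retina libraries and are not independent of each other.

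**Figure D4:**
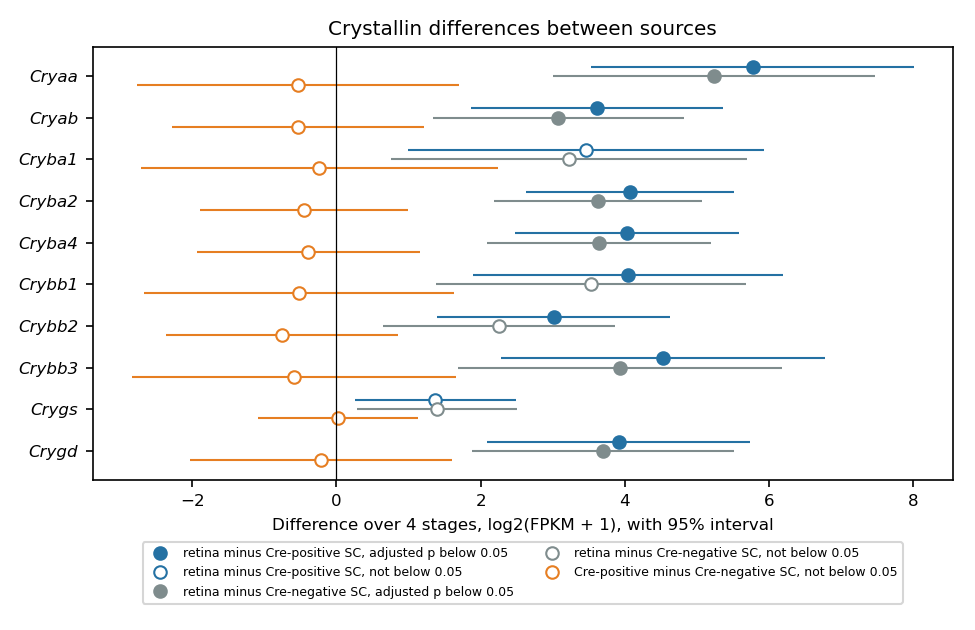
Difference between sources over 4 stages for each crystallin on the log2(FPKM + 1) scale, with the limma 95% interval as a line and a filled point where the adjusted p was below 0.05. The retina differences lie between 1.37 and 5.78 and the Cre-positive minus Cre-negative ones between -0.76 and 0.03, each of these with an interval that spans 0.

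Cre-positive and Cre-negative SC were compared to see whether crystallin mRNA was bound in the axon samples beyond background. By limma 0 of 10 members were called, where 11.1% of the 7193 genes were called in either direction. An unadjusted p under 0.05 was found for 0 members and 1466 genes. The differences ran from -0.76 for Crybb2 (95% interval -2.37 to 0.86) to 0.03 for Crygs (-1.09 to 1.14). Those of 7 members turned positive once both libraries that stood apart were left out, at most 0.51 for Cryba1, and 0 of 10 were called. By estimated depth 3 fragments of a typical member were 5.08 and 2.93 FPKM in the adult Cre-positive libraries, so values at or below that rest on few fragments. In the Cre-positive SC libraries with FPKM the highest value of any member was 4.59, of Cryaa in adult replicate 2. In the adult Cre-positive SC library without run-off, which has no Cre-negative counterpart, Cryab stood at 86.4 CPM (reads scaled to library size), against 119 CPM in adult retina without run-off. In the FPKM libraries of adult Cre-positive SC Cryab was at 0 and 1.04.

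Stage by stage, retina against Cre-positive SC gave called members at P0.5 alone, where 6 of 10 were higher by limma and 1.49% of genes were. Of the 7 members that pass the filter on SC libraries alone 4 were called. These were Crybb3 (7.40 ± 2.12), Cryaa (6.83), Crygd (6.35), Crybb1 (5.69), Cryba2 (5.29) and Cryba4 (4.37). Leaving out either P0.5 Cre-positive SC library brought the count to 0, and leaving out either P0.5 retina library to 1. All genes called in either direction went from 27.9% to 9.03% and 17.1% without the Cre-positive SC libraries, and to at most 18.1% without either retina one. At E17.5 the count was 0 of 10 by limma, where 0.862% of genes were called higher. There 6 members were under an unadjusted p of 0.05, as were 720 of the 7193 genes in either direction. At P7.5 and in the adult it was also 0 of 10, with 5 members under an unadjusted p of 0.05 at each stage and 0% of genes called higher at either. The adult count was 1 without P7.5 retina replicate 1 (0.628% of genes in either direction) and 2 without P7.5 retina replicate 2 (0.727%), against 0.0973% of genes with both. Without both libraries that stood apart 4 members were called at P7.5 (0.382% of genes in either direction) and 5 in the adult (1.06%). The 4 at P7.5 were Cryaa, Cryab, Cryba4 and Crybb2, and in the adult Cryba2 joined them; the P7.5 value then rested on 1 retina library, taken to vary like the other groups. Of these Cryab, Cryba2 and Cryba4 passed the filter of that fit through retina libraries only. A test of whether the difference itself varied among stages (limma F test) called 0 of 10 members, where 16.5% of genes were called. Under an unadjusted p of 0.05 were 0 members and 1847 of the 7193 genes. With P7.5 retina replicate 1 or replicate 2 left out 1 member was called in that test, where 17.1% and 16.7% of genes were. The stages are therefore not shown to differ in it.

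Change within retina was tested on the 8 retina libraries, where 4080 genes passed the filter. In an F test for any change among stages 1 member, Crybb2, was under an unadjusted p of 0.05, as were 162 of the 4080 genes. By adjusted p 0 of 10 members were called, where 0.539% of genes were. The count was 1 without P7.5 replicate 1 (0.948% of genes) and 2 without P7.5 replicate 2 (1.73%). Between consecutive stages 0 of 10 members were called, and 0 were under an unadjusted p of 0.05, at each step. The share of genes called was 0% from E17.5 to P0.5, 0.0735% from P0.5 to P7.5 and 0% from P7.5 to the adult. Under an unadjusted p of 0.05 were 34, 99 and 57 of the 4080 genes at these steps in turn. Without P7.5 replicate 2 the latter 2 steps each called 1 member, where 0.626% and 0.882% of genes were called.

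Comparing the 2 late stages with the 2 early ones called 0 of 10 members by limma, where 0.956% of genes were called. Crybb2 and Crybb3 were under an unadjusted p of 0.05, as were 379 of the 4080 genes. Crybb2 was higher late by 3.81 ± 1.29 (adjusted p = 0.18), and Crybb3 was lower late by a difference of -2.49 ± 1.12 (adjusted p = 0.49). Without P7.5 retina replicate 1 the Crybb2 difference was 5.40 (adjusted p = 0.0015), the only member called, where 2.02% of genes were. Without adult retina replicate 2 the Crybb3 difference was -4.15 (adjusted p = 0.033, with 2.48% of genes called), while that of Crybb2 was 4.03 (adjusted p = 0.084). The direction for Cryaa, Cryba1 and Cryba2 turned from lower to higher without P7.5 replicate 1.

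Ratios within a library do not depend on its total, and the 2 adult retina replicates differed in them. Crybb2 was 1.80 times Cryaa in adult replicate 1 and 0.152 times in adult replicate 2. Crybb2 was 0 times Crybb3 in both E17.5 libraries, 0.0325 and 0.0320 times at P0.5, 0.716 times in P7.5 replicate 2 and 0.643 times in adult replicate 2. In P7.5 replicate 1 Crybb2 was at 0.230 FPKM, below the 0.522 FPKM of 3 fragments there, so no ratio is read from it. In adult replicate 1 Crybb2 was at 153 FPKM and Crybb3 at 0.342. The latter is below the 0.373 FPKM of 3 fragments there, so no ratio of these 2 is read from it. In the adult retina library without run-off, taken as reads per kilobase of median transcript length, Crybb2 was 16.1 times Crybb3. Crygd was 0.102 times Cryaa in both P7.5 and adult replicate 2, and 0.0101 times in the adult library without run-off. The ratios of the library without run-off rest on read counts from another program than FPKM, so the 2 kinds of ratio are not strictly alike. Member by member, P7.5 replicate 2 was 0.755 to 1.36 times adult replicate 2, and these libraries correlated at 0.95 over all genes (0.95 without the members), against 0.72 between the adult replicates.

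Adult Cre-negative SC replicate 1, which has no tagged ribosomes and comes from brain by its label, held crystallins at a median of 21.9% of their level in adult retina replicate 2, from 0% for Crygs to 44.4% for Cryab. Photoreceptor markers in it were at a median of 32.6% of adult retina replicate 2, from 25.4% to 60.0% over the 7 present there. Other lens markers were at a median of 19.8% over 9 genes, of which 3 were at 0. Whether eye tissue entered this sample was not tested.

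Run-off was used in the study to separate mRNA on elongating ribosomes, which finish and leave during incubation, from mRNA that stays bound. There was 1 adult library per condition, so no test was possible, and the intervals below cover counting error only. Reads on genes numbered 4686284 in retina without run-off and 315009 with it, which is 6.72% as many. The 10 crystallins together had 9363 reads without and 4286 with run-off, or 45.8% as many (exact 95% interval 44.1 to 47.5). Their share of the library went from 0.200% to 1.36%, a ratio of 6.81. The 8 photoreceptor markers together kept 7.62% of their reads (7.28 to 7.96) and 12 other lens markers 40.5% (35.1 to 46.7). Lgsn held 128 of the 276 lens reads with run-off. The median per lens gene was 13.5% over 7 genes with 10 or more reads, 3 of them at 0. For the 10 members the median was 41.7%. High pooled shares were not particular to lens, but they rested on few genes. The 7 oligodendrocyte markers kept 56.9% (599 to 341 reads), where Cnp went from 588 to 266 and Mbp from 9 to 73. The 6 sclera markers were at 65.7% (35 to 23), where Fmod went from 32 to 0 and Dcn from 1 to 23. The 13 other crystallins kept 5.65% (230 to 13 reads) and 6 eye muscle markers 0% (58 to 0). Of the other crystallins Crybg3 held 131 of the 230 reads, and Cryzl1 10 of the 13. Crygb, Crygc and Crygn had 6, 12 and 18 reads without run-off and 0 with it.

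Among single members the reads kept ranged widely. Cryaa went from 4461 to 2109 reads (47.3%), Crybb2 from 2926 to 1059 (36.2%) and Cryab from 556 to 194 (34.9%). Cryba1 had more reads with run-off, 325 against 249 (131%, interval 110 to 155), and its interval lay above equality. Crygs kept 84.5% (213 to 180 reads), Crybb1 78.3% (120 to 94) and Cryba2 77.6% (330 to 256). The lowest were Crybb3 with 20.2% (173 to 35 reads), Cryba4 with 10.7% (318 to 34) and Crygd with 17 reads without and 0 with run-off, where 3 reads would be 9.52 CPM. By share of the library (CPM), 8 of the 10 members were at least 2-fold higher with run-off, against 19.8% of the 6674 genes with 10 or more reads. Only Cryba4 (1.59-fold) and Crygd were below that. Members with many reads reach such a ratio more easily than genes near 10 reads. Over the 2063 genes with at least 100 reads the share at 2-fold was 23.1%, and 8 of the 9 members of that depth reached it.

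**Figure D5:**
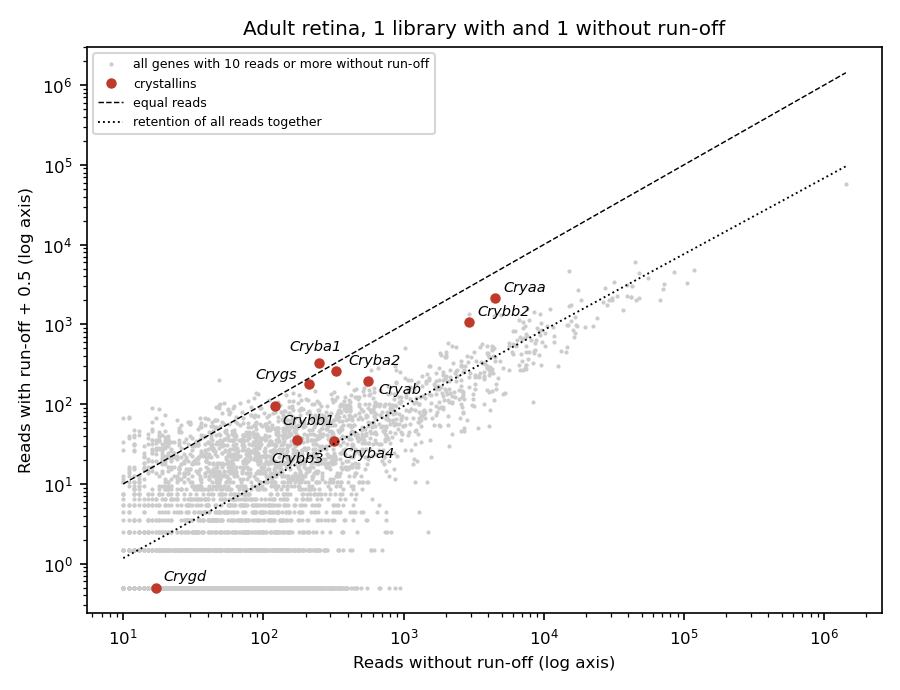
Reads with run-off plus 0.5 against reads without, on log axes, for adult retina genes with 10 or more reads without run-off (grey) and the crystallins (red). The dashed line is equal reads and the dotted line the 6.72% kept by the whole library; 9 crystallins lie above the dotted line, Cryba1 above the dashed one, and Crygd is at 0 reads.

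In Cre-positive SC, Cryab was the member with reads to compare, and it went from 282 reads to 1 (0.35%, interval 0.0089 to 1.99), while the library kept 10.7% of its reads. The other 9 members together had 11 reads without and 0 with run-off in SC. The kept share of Cryab was 34.9% in retina (29.5 to 41.2). With 1 library per condition, whether the tissues differ in it was not tested.

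Of 12 other lens genes, which include channels, filament and membrane proteins of fibre cells, 9 were tested and 1 was higher in retina than in Cre-positive SC. That was Mip, the lens water channel (2.76 ± 0.83, adjusted p = 0.042), at 642 FPKM in P7.5 retina replicate 1 and at 1.14 to 11.9 in the other 7 retina libraries. Lim2 (2.21), a fibre membrane protein, Bfsp1 (0.96), a beaded-filament protein, and Lctl (0.76) did not pass with all libraries. Without both libraries that stood apart the difference was 1.92 for Mip, 2.73 for Lim2, 1.22 for Bfsp1 and 1.01 for Lctl. It was 0.98 for Lenep, 0.94 for Birc7, 0.82 for Bfsp2, 0.77 for Grifin and 0.60 for Gja3. All 9 differences were thus positive there, and each but that of Mip was larger than with all libraries. Mip aside, these genes passed the filter of that fit through retina libraries only and had to be higher there to be tested. The retina library left out also held each of them, Mip aside, below 1 FPKM. Some groups then held 1 library, so effect sizes alone are given for these genes. In the 7 retina libraries without P7.5 replicate 1 the list summed to 1.45 to 46.7 FPKM, with Lgsn and Dnase2b at 0 in each, and in 15 SC libraries to 0 to 4.92. The 2 retina libraries with the highest crystallin sums, 1329 and 1276 FPKM, also had the highest lens sums of the 7, 46.4 and 46.7, each with 9 of 12 markers at 1 FPKM or more. In adult retina replicate 1 the lens sum was 1.45 FPKM with 1 of 12 markers at 1 FPKM or more, beside a crystallin sum of 307 FPKM. Lgsn, named after its values were seen, was listed at 0 FPKM in every library but had 144 reads without and 128 with run-off in retina. Cornea markers summed to at most 0.660 FPKM in any retina library, sclera markers to 11.4, eye muscle markers to 2.98 and pigment epithelium markers to 12.6. The part of lens carry-over in the crystallin levels was not tested beyond these values.

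Of 15 further genes with crystallin names 13 were in the files and 11 were tested. In retina against Cre-positive SC, 6 were higher, where 3.66% of all genes tested were, and 1, Cryl1, was lower. Against Cre-negative SC 3 were higher, where 2.5% of genes were, and 0 were lower. Crygn, called in both, was at 0 in every SC library and passed the filter through retina libraries only. Cryl1 passed only through the P0.5 Cre-positive SC libraries (73.3 and 33.9 FPKM), so its difference over 4 stages comes from that stage. The most abundant were Cryga (61.2 FPKM on average over retina, difference 4.36), Cryz (54.0, a quinone reductase, difference 3.36, adjusted p = 0.057), Cryge (50.8, difference 4.21) and Crygf (45.4, difference 4.17). Cryga, Cryge and Crygf had 0 reads in either retina run-off library, and each was listed at 0 FPKM in adult retina replicate 1, while adult retina replicate 2 listed them at 84.6, 68.5 and 60.1 FPKM. They share 42.3%, 48.3% and 32.2% of their 50-base words with other genes.

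The α-crystallins' small heat shock relatives and the lens regulators stayed low. Of 8 other small heat shock genes 2 were tested by limma. Hspb6 was higher in retina than in Cre-positive SC (0.43, adjusted p = 0.023) at no more than 1.73 FPKM, while Hspb1 was at 0.34 (adjusted p = 0.38). Hspb6 was at 0 in every SC library and passed the filter through retina libraries only, so it had to be higher there to be tested. Of 10 lens transcription factors 3 were tested. Pax6, the master regulator of eye development (1.83, adjusted p = 0.0035), and Six3 (1.14, adjusted p = 0.013) were higher, and Prox1 (0.34, adjusted p = 0.30) did not pass. Six3 also passed the filter through retina libraries only. Of the SC libraries Pax6 reached 1 FPKM in adult Cre-negative replicate 1 alone (1.36), so it too was tested through its retina values. Pax6 and Six3 are expressed in retina as well as lens. Prox1 was at 1.19 FPKM in P7.5 and 1.33 in adult retina replicate 2, and at no more than 0.141 in the other retina libraries. Maf was not tested and did not exceed 0.505 FPKM in retina. Hsf4, Foxe3 and Pitx3, named outside the rule of mean level and more restricted to lens, were at 0 in every FPKM library.

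The genes whose pattern over the 24 libraries was most like the members' mean were Crygc and Crygb (Pearson r = 0.96 each), Crygf, Gngt2, BC064078 and Higd2a (0.93 each), Lim2, Kdelr1, Yif1a and Cd63 (0.92 each), among 7183 genes. Over the 8 retina libraries alone they were Abcg1 (0.98), Ap2s1 (0.95), Atp6v1f (0.94), Ndufv2 and Pdzd8 (0.93 each), among 4070 genes. All values in a library share its depth and quality, so these are descriptions of like patterns. Within the group, the correlation of a member with the mean of the other 9 over 24 libraries was lowest for Crybb2 (0.66) and Crygs (0.72), and 0.91 to 0.97 for the others. Over the 8 retina libraries it was 0.36 for Crybb2 and 0.67 to 0.96 for the others.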

How the data were processed

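Ribosome-bound mRNA from retina, Cre-positive SC and Cre-negative SC was measured at 4 stages with 2 replicates each, and grouped by the sample labels. According to the methods and the submitters' processing notes, the authors used TopHat2 2.0.12 against mm10. For 24 libraries they deposited values in FPKM (Cufflinks 2.2.1). Unnormalized read counts per gene (HTSeq 0.6.1p1) were deposited by the authors for the 4 libraries of the run-off experiment. RNA was amplified by PCR, with further rounds for SC, so levels of retina and SC carry unequal amplification. Nothing in the labels says that replicates came from separate animals, so p-values measure the spread between libraries.

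FPKM was analysed as log2(FPKM + 1), which understates changes of low genes, in genes at 1 FPKM or more in at least 2 libraries of a fit, with limma 3.58.1 and statmod 1.5.0 (R 4.3.3; trend and robust moderation; two-sided; Benjamini-Hochberg over all genes of the fit; threshold 0.05). Fits used all 24 libraries as 12 groups, or the 8 retina libraries for stage changes. Only the 24-library fit of retina against Cre-positive SC was tried on simulated data, with the same spread for every gene and no library standing apart. That trial does not cover libraries as uneven as these, nor the retina-only fits. Genes with a missing entry, 4 in all, were left out. Depth of FPKM libraries was estimated from the spacing of FPKM times transcript length in single-transcript genes. Run-off reads were compared without scaling, with exact 95% intervals for ratios. Alternatives were a pseudocount of 0.1, no filter, TPM and median-ratio scaling, plain moderation, a replicate block, fewer groups and leaving out libraries; leaving out both libraries that stand apart was added after seeing the data. Tables were handled in pandas 2.3.3 and numpy 2.4.6 under Python 3.11.15, intervals came from scipy 1.17.1, and plots from matplotlib 3.10.9.

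The members and all lists were chosen with earlier results of these data known. All members were named. Of each crystallin, heat shock, regulator and lens list up to 4 genes were named by mean retina FPKM, and 10 and 5 genes by likeness of pattern. Further genes of these lists were named outside this rule, with their values known.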

Additional observations from a re-analysis of the deposited data

How the results depend on the processing

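In retina against Cre-positive SC 8 members were called in each setting tried with all libraries, and all 10 members were above the all-gene median in both retina comparisons under each of these. Against Cre-negative SC the count was 6, and 7 with a pseudocount of 0.1, 4 without the filter and 3 on the TPM scale. Leaving out both libraries that stand apart, an alternative chosen after seeing the data, gave 10 members against Cre-negative SC, 4 at P7.5, 5 in the adult, and 1 each for the difference among stages, for late against early retina and for any change among retina stages. With retina and SC in that fit, Cryab, Cryba2, Cryba4, Crygd and Crygs passed the filter through retina libraries only. The median of all genes in retina against Cre-positive SC was -0.21, and 0.05 on the TPM scale, where 9152 genes passed the filter against 7193. It was 0.014 without the filter and -0.23 with median-ratio scaling. Scaling run-off reads to library size (CPM) turned the members' reads with run-off from 45.8% to 681% of those without, since the 2 libraries differ in total.

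Leaving out single libraries gave 3 to 10 members against Cre-positive SC, 3 to 10 against Cre-negative SC, 0 to 7 at P0.5, 0 to 2 in the adult and for any change among stages, and 0 to 1 for the difference among stages, for both steps that involve P7.5 and for late against early retina. Cre-positive minus Cre-negative differences, none of them called, turned from negative to positive for 7 members in some fits. They ran from -1.34 to 0.27 for Cryaa, -1.15 to 0.077 for Cryab, -0.98 to 0.51 for Cryba1, -0.90 to 0.12 for Cryba4, -1.05 to 0.015 for Crybb1, -1.32 to 0.14 for Crybb3, -0.62 to 0.18 for Crygd and 0 to 0.050 for Crygs. The upper ends, Crygs aside, are also the values without both libraries, and Cryba1 was at 0.17 with a pseudocount of 0.1. Late minus early retina ran from -2.52 to 1.21 for Cryaa, -0.34 to 2.83 for Cryab, -2.54 to 1.24 for Cryba1, -2.29 to 0.31 for Cryba2 and -1.21 to 1.41 for Cryba4. Without both libraries Cryaa was at 1.21, Cryba1 at 1.15 and Cryba2 at 0.31. Cryba4 was at -0.16 with a pseudocount of 0.1 and at -0.24 with median-ratio scaling. The cause of these changes was not tested.

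No source used here says that a replicate number marks an animal or litter, and the numbers were not taken to pair the samples. The deviations of same-numbered retina and Cre-positive SC libraries correlated at 0.12, 0.39, 0.34 and -0.03 at the 4 stages, and those of Cre-positive and Cre-negative SC at 0.39, 0.43, 0.32 and 0.062. With the replicate block 8 members were called against Cre-positive SC, 4 against Cre-negative SC (Cryab and Crybb3 were lost, adjusted p = 0.057 and 0.072) and 5 at P0.5, and 13 of 13 counts stayed within 1.5 times the value without it. Depth limits the SC values most, where 3 fragments reach up to 7.69 FPKM.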
